A study of Neurospora crassa with 86 samples.

Results

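The genes described here are those of the filamentous fungus Neurospora crassa whose transcripts were most abundant on mannose. They were chosen from the wild type's RNA sequencing values in 14 media, as FPKM (fragments counted for a gene, scaled by the length of its transcript and by the number of mapped fragments in the library). A gene was taken if its mean log2(FPKM + 1) was highest in 2 mM mannose, exceeded the second highest medium by at least 1 log2 (the gap) and came with a mean of at least 5 FPKM in mannose. This rule was met by 199 of the 9598 entries, 4 of them (NCU00461, NCU09873, NCU07225 and NCU06961) were set aside, and 195 remained, called the members below. Because wild type values chose them, their levels in wild type are a description without a test.

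Mycelia were grown for 24 h in constant light in medium with 2% sucrose, then washed, and spent a further 4 h in the medium tested. The series held 86 libraries in 27 groups of strain and medium, and the groups that matter most here were Δamn-1 on 2 mM mannose, wild type (FGSC 2489) on 2 mM mannose, and wild type without a carbon source, each with 25 mM ammonium nitrate and 3 libraries. These 3 groups were washed without carbon and all others without nitrogen. Δamn-1 was also grown on 50 mM isoleucine, proline or tryptophan as nitrogen source with 2% sucrose, 3 libraries each, as was the wild type. The remaining mutant groups were Δnit-2 in 5 media and Δnit-4 and Δnmr in 2 each, all with 2% sucrose. The other wild type media also held 2% sucrose: a full medium with 25 mM ammonium nitrate (5 libraries), a medium without nitrogen (6 libraries), and media with 50 mM ammonium chloride, sodium nitrate, glutamate or glutamine, 112 mM alanine, 200 mM glycine or 344 mM arginine (3 libraries each). The labels call the replicates biological and do not say whether a deletion strain is a single isolate.

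Fungi given a rich sugar such as sucrose keep genes for other carbon sources at a low level, which is known as carbon catabolite repression. When the sugar runs out, these genes are released, and the cell makes secreted glycoside hydrolases, sugar transporters and the enzymes of gluconeogenesis. Genes that answer a particular sugar often need a transcription factor in addition. The gene amn-1 encodes a transcription factor, and whether it acts directly on any gene described here was not tested.

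Transcripts of NCU00445, taken here as amn-1, were 0.274, 0.392 and 0.321 FPKM in Δamn-1 on mannose, against 36.6, 23.5 and 37.1 FPKM in wild type on mannose. Wild type without carbon had 17.8, 14.4 and 16.2 FPKM. In the amino acid media NCU00445 was not absent from the libraries labelled Δamn-1, with 1.68 to 2.29 FPKM in Δamn-1 on isoleucine against 11.5 to 13.8 in wild type, and 4.39 to 5.08 FPKM in Δamn-1 on proline against 8.94 to 10.1 in wild type. On tryptophan it had 4.66 to 5.48 FPKM in Δamn-1 and 8.62 to 10.4 in wild type, so it was near 0 in the deletion strain on mannose alone. The difference between the libraries labelled Δamn-1 and wild type was -4.62 log2 on mannose, -2.20 in isoleucine, -0.90 in proline and -0.76 in tryptophan, the last 2 short of the limit of 1 log2 used here. The levels in proline and tryptophan go against a complete loss of the transcript, and a strain difference in the amino acid media may not measure the loss of amn-1.

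Estimated depth was 14500000 to 15300000 fragments per library in Δamn-1 on mannose, 10400000 to 14100000 in wild type on mannose and 10700000 to 12700000 in wild type without carbon. One wild type mannose library, numbered 2 in the table, stood apart. Over the 8558 genes tested its log2 values correlated with those of the other wild type mannose libraries at 0.971 and 0.975, against 0.989 between those others, and the 3 Δamn-1 mannose libraries correlated at 0.992 to 0.995. In this library 45 members were at least 1.5 times the mean of the other 2 libraries and 51 were at or below that mean divided by 1.5. Of all tested genes 10.2% and 12.6% were so placed in it. The counts of members were 24 and 26 in wild type mannose library 1, and 13 and 26 in library 3. The median coefficient of variation of the members was 8.53% in Δamn-1 on mannose and 26.1% in wild type on mannose, against 7.39% and 16.2% over all tested genes. Without wild type mannose library 1 the rule took 188 genes, of which 171 were among the 195. Without library 3 it took 213, of which 190 were among the 195. Without wild type mannose library 2 the rule took 206 genes, of which 163 were among the 195, and 32 members were lost. Members with a symbol that owe their place to this library are fbp-1, pex11, rib-3, acd-3 and the merged entry with arg-14, and so do NCU03415, NCU01231, NCU03603, NCU09698, NCU09599, NCU09670, NCU00282, NCU00590, NCU06525, NCU04870 and NCU04522 among the others named below.

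**Figure D1:**
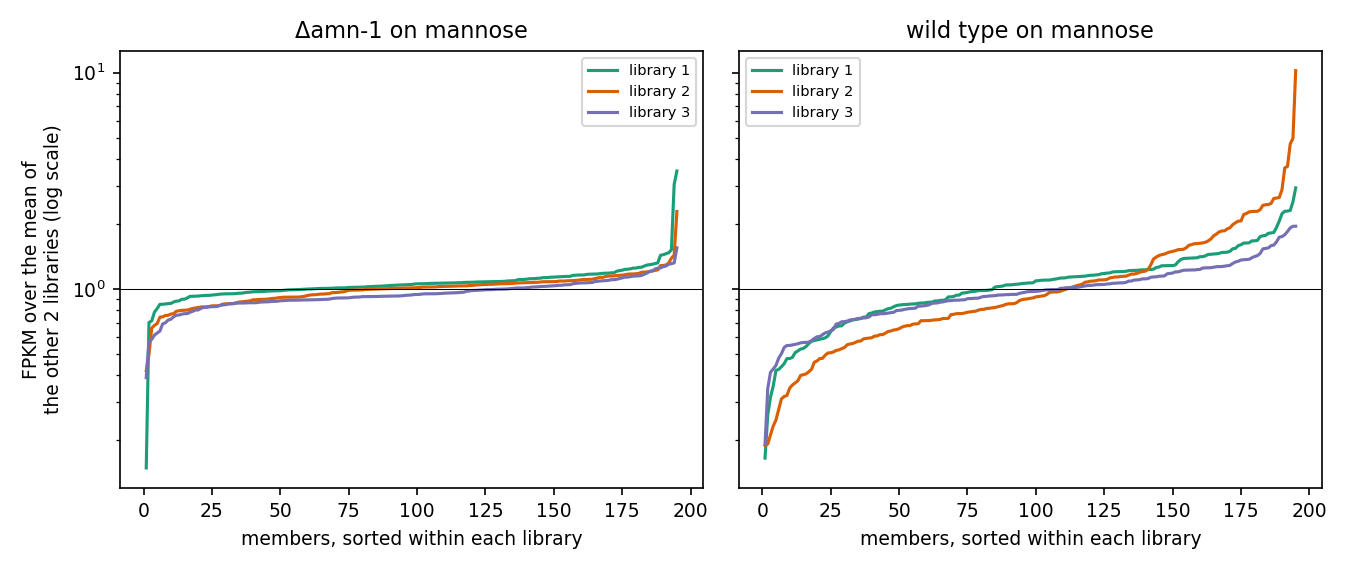
For each of the 195 members, its FPKM in 1 library over the mean of the other 2 libraries of the group, on a log axis and sorted within each library, for Δamn-1 on mannose (left) and wild type on mannose (right). The Δamn-1 lines stay close to 1 for nearly all members, while wild type library 2 has 45 members at 1.5 or more and 51 at 1/1.5 or less. Of all tested genes 10.2% and 12.6% are so placed in that library.

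Conidia and aerial hyphae are the other cell forms a mycelial sample can hold. Of 10 markers of these forms 9 were found by symbol, and none was at 0 in any group. Their summed level was 23513 to 32072 FPKM in Δamn-1 on mannose, 7527 to 16124 FPKM in wild type on mannose and 26396 to 34923 FPKM in wild type without carbon. Most of this was eas, the hydrophobin that coats conidia, with 22660 ± 3141 FPKM in Δamn-1 on mannose and 6835 ± 1442 FPKM in wild type on mannose (SD, n = 3 each). Other markers lay the other way: con-10, a conidiation gene, averaged 145 ± 12.3 FPKM in Δamn-1 and 487 ± 197 FPKM in wild type on mannose. The markers therefore moved between the groups compared below, and their part in the results was not tested. In mycelial samples like these, fewer cells of a kind and less RNA per cell cannot be told apart.

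On mannose the members made up a large part of the wild type transcriptome. Their share of the summed FPKM was 19.5% to 30.0% in the wild type mannose libraries and 10.7% to 12.7% in wild type without carbon, and it was 0.516% to 1.77% in the wild type media that held both sucrose and nitrogen. ccg-1 (NCU03753, supercontig 12.5, positions 2302672 to 2303443), a clock-controlled gene known to be repressed by glucose, carried much of it. With ccg-1 left out the share was 12.7% to 14.3% in wild type on mannose and 4.57% to 5.59% without carbon. The median member had a mean of 125 FPKM in wild type on mannose, 39.5 without carbon, 12.1 without nitrogen and 5.13 in full medium.

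Carbon starvation was the second highest medium for 152 of the 195 members, so most of them had their 2 highest wild type levels in the 2 media without sucrose. The other 43 had their second highest level in glycine (11), nitrogen starvation (8), tryptophan (7), alanine (5) or 1 of 6 other media (12 in all). Gaps ran from 1.01 to 2.94 log2 with a median of 1.34, and 27 members had a gap of at least 2. The widest belonged to the merged entry NCU04078,NCU12107 (2.94), NCU02126 (2.93), NCU08412 (2.80), NCU01861 (2.75), NCU09491 (2.64), NCU03913 (2.62), NCU00985 and NCU02704 (2.61 each), NCU06524 (2.51) and gh10-1 (2.47). Just inside the gap limit were NCU00590 (1.01) and NCU07120 (1.01), and just outside it NCU01430 (0.999) and NCU09034 (0.995). At the level limit, NCU06525 (5.37 FPKM) and NCU04870 (5.39 FPKM) were just inside, and NCU07995 (4.95 FPKM) and NCU16444 (3.32 FPKM) just outside.

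**Figure D2:**
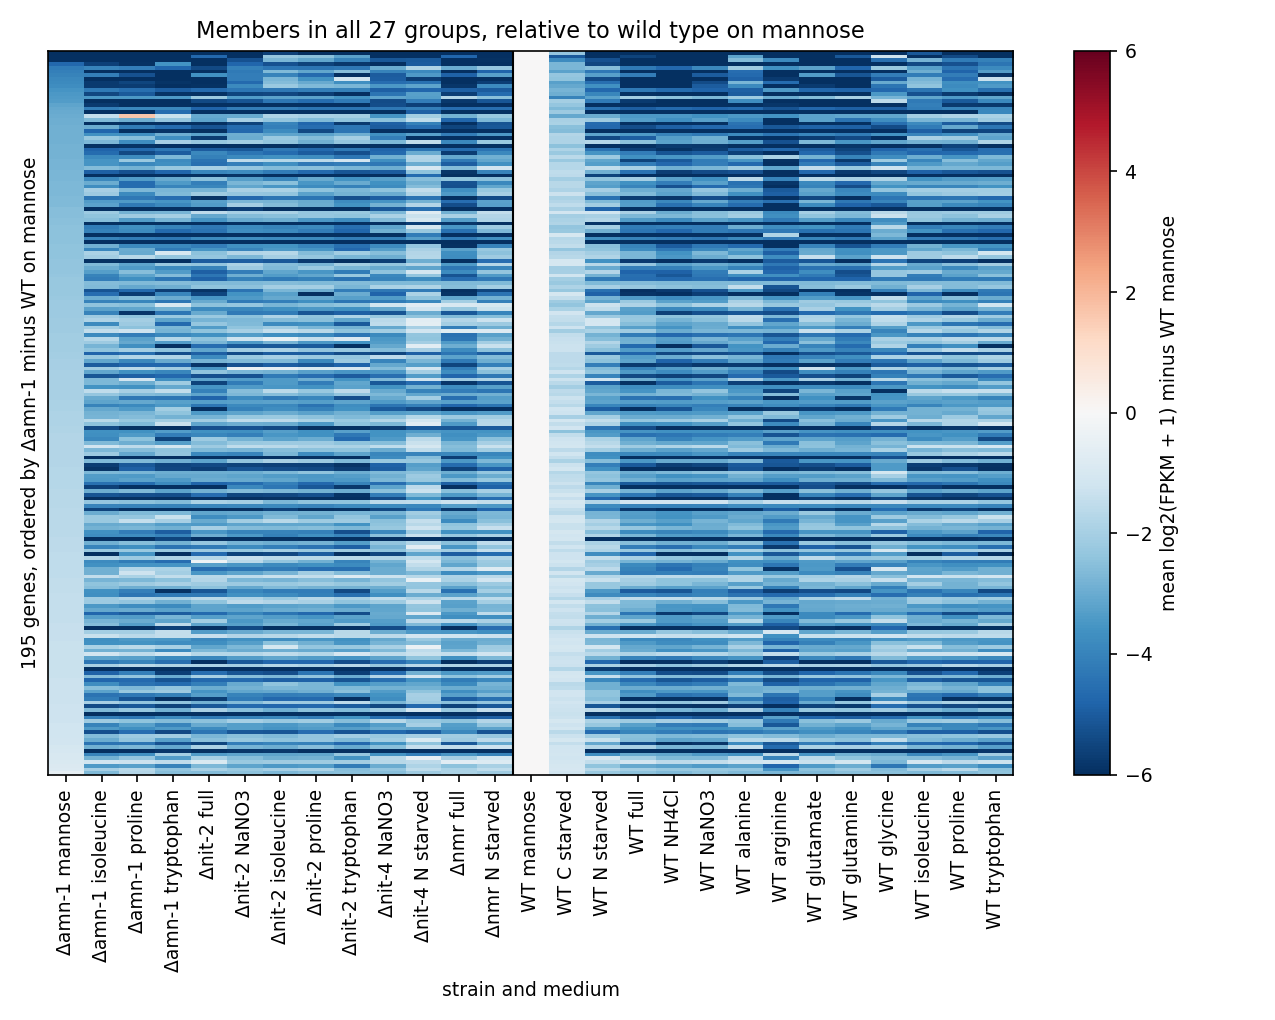
Mean log2(FPKM + 1) of the 195 members (rows) in all 27 groups (columns) minus the mean in wild type on mannose, with the mutants left of the black line and wild type right of it, and rows ordered by the difference between Δamn-1 and wild type on mannose. Wild type carbon starvation is the palest column for 152 members among the other wild type media, the Δamn-1 mannose column darkens from bottom to top, and the single red cell is NCU04522 in Δamn-1 on proline.

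The 10 most abundant members began with ccg-1. It had 14292, 11274 and 15137 FPKM in Δamn-1 on mannose, against 106885, 42475 and 75756 FPKM in wild type on mannose, with 35144, 34419 and 30457 FPKM in wild type without carbon. All Δamn-1 mannose libraries lay below all libraries of both wild type groups, and wild type library 2 was the lowest of its group. NCU05498, next in abundance, had 3302, 3125 and 2845 FPKM in Δamn-1 on mannose, against 13453, 10207 and 11915 FPKM in wild type on mannose. The others, with means of 1831 to 3849 FPKM in wild type on mannose, were NCU08949, NCU08351, NCU03415, bli-3 (NCU07267, known as a gene induced by blue light), NCU06977, NCU07287, NCU08771 and NCU08541.

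On mannose nearly all members were lower in Δamn-1 than in wild type. With limma, on log2(FPKM + 1) and with p adjusted over all tested genes, 187 of the 195 members were lower in Δamn-1 than in wild type on mannose by at least 1 log2 at an adjusted p under 0.05, and 0 were higher (677 of all tested genes were higher, and all 195 members had an unadjusted p under 0.05, each with the lower value in Δamn-1). Among the 8558 genes tested 8.99% were lower and 7.91% higher. The median difference was -1.86 log2 for the members and -0.04 for all tested genes, and the median member had 0.250 times its wild type level. This comparison shares the wild type mannose libraries with the rule that chose the members, which favours a fall. All Δamn-1 libraries lay below all wild type libraries for 192 members, against 32.8% of tested genes, and above for 0, against 28.9%, and the exceptions were NCU08223, NCU09685 and NCU09957 (NCU09685 and NCU09957 chosen after their values were seen). Without wild type library 2, 177 members were called lower, and when the members were also chosen without it, 196 of 206 were.

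**Figure D3:**
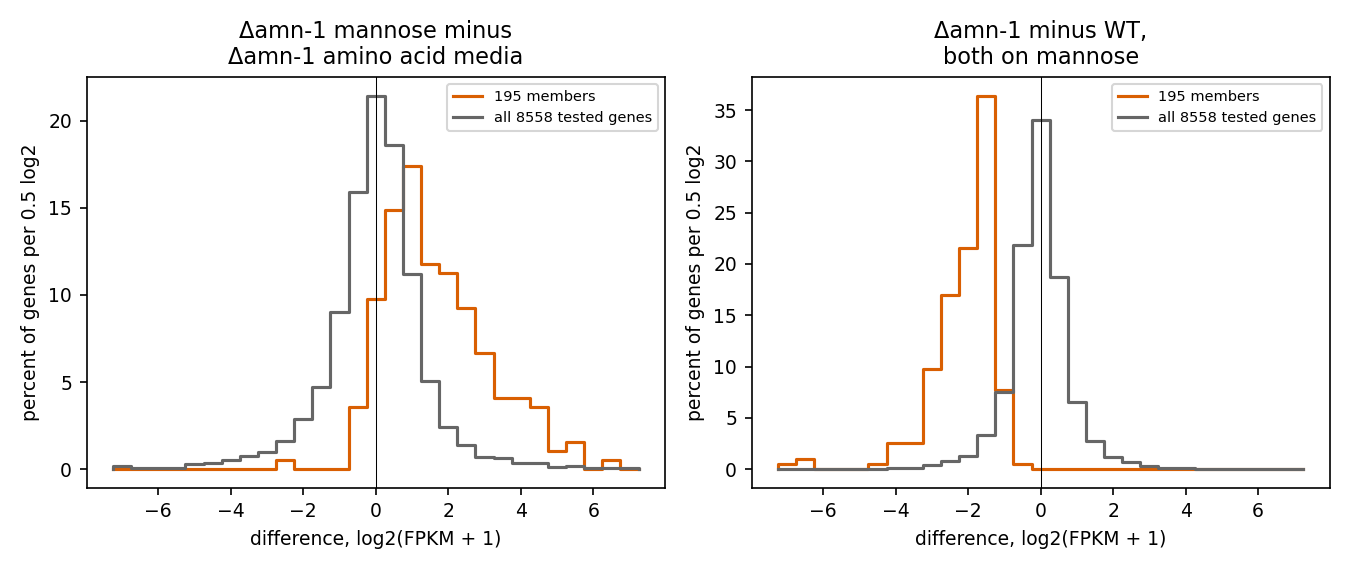
Histograms of fitted log2 differences for the 195 members (orange) and all 8558 tested genes (grey), as percent of genes per 0.5 log2. Left, Δamn-1 on mannose minus Δamn-1 in the 3 amino acid media, where the members have a median of 1.40 against 0.05 for all genes. Right, Δamn-1 minus wild type on mannose, where every member is below 0 and the median is -1.86.

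The deepest fall was that of NCU06895 (supercontig 12.7, from position 692576). It had 4.99, 4.82 and 4.73 FPKM in Δamn-1 on mannose, against 1207, 222 and 1107 FPKM in wild type on mannose, a difference of -6.84 log2 (SE 0.53, limma adjusted p = 3.7e-17). Wild type library 2 was far below the other 2 wild type libraries, and still above every Δamn-1 library. NCU07895 had 1.06, 1.07 and 1.09 FPKM in Δamn-1, against 257, 116 and 198 FPKM in wild type, a difference of -6.45 log2 (SE 0.22, limma adjusted p = 1.0e-34). The Δamn-1 libraries of this gene were also below the 3.44 to 6.55 FPKM of wild type without carbon, and its second highest wild type level was in glycine, at 71.1 to 80.9 FPKM. Values for NCU07895 are uncertain in that its locus overlaps NCU07894 and the strand used in counting is not given. Neither adjusted p above allows for the choice of the members by the same wild type mannose libraries, which favours a fall.

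NCU02704 had 5.42, 5.10 and 5.73 FPKM in Δamn-1 on mannose, against 672, 307 and 809 FPKM in wild type, a difference of -6.43 log2 (SE 0.34). NCU01861 had 13.6, 9.07 and 9.95 FPKM in Δamn-1, against 413, 152 and 433 FPKM in wild type (-4.69 log2, SE 0.43). NCU00721 had 21.9, 18.3 and 20.8 FPKM in Δamn-1, against 406, 337 and 423 FPKM in wild type (-4.18 log2, SE 0.22). In these 3 genes too every Δamn-1 library was below every wild type library, by the widest margin in NCU02704. The reference gives none of these 5 genes a symbol. Other members with wide gaps also fell: NCU02126 by 4.10 log2, NCU03913 by 3.84, NCU08412 by 3.55, the merged entry NCU04078,NCU12107 by 3.47, NCU09491 by 3.08 and NCU00985 by 2.89. All 27 members with a gap of at least 2 were called lower, against 8.99% of tested genes, but the gap and the call rest on the same wild type mannose libraries, so the choice favours it.

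The 8 members not called lay lower by smaller or less certain amounts, and some calls turned on 1 library. NCU08223, the closest to no difference, had 4.06, 2.76 and 3.92 FPKM in Δamn-1 on mannose, against 10.2, 2.62 and 6.23 FPKM in wild type (-0.55 log2, SE 0.19), and wild type library 2 was the one below the Δamn-1 libraries. NCU03733 had 11.2, 12.9 and 12.6 FPKM in Δamn-1, against 25.0, 22.1 and 20.7 FPKM in wild type (-0.83 log2). NCU03603 had 115, 123 and 90.0 FPKM in Δamn-1, against 144, 383 and 147 FPKM in wild type (-0.89 log2), with library 2 high. It was called without wild type library 1 (-1.12 log2) or 3 (-1.11 log2). NCU09698, named after its values were seen, had the largest difference of the 8, -1.27 log2, with an adjusted p of 0.0595, and 142, 114 and 147 FPKM in Δamn-1 against 195, 905 and 191 FPKM in wild type. Library 2 alone was high there. The others of the 8 were gh47-5 and, also named after their values were seen, NCU03462, NCU09599 and NCU09670.

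Of the 17 members with a symbol 9 encode glycoside hydrolases, enzymes that cut sugars from polysaccharides and glycans, or are named as such. gh10-2 (NCU08189) and gh10-1 (NCU05924) belong to a family of xylanases. gh10-2 had 7.33, 5.26 and 4.39 FPKM in Δamn-1 on mannose, against 27.7, 47.1 and 23.0 FPKM in wild type and 6.62, 6.97 and 7.01 FPKM in wild type without carbon. The Δamn-1 libraries were well below wild type on mannose and close to carbon starvation. gh10-1 had 6.00, 1.88 and 1.54 FPKM in Δamn-1, against 12.8, 9.62 and 13.8 FPKM in wild type on mannose and 0.896 to 1.87 FPKM without carbon, so 1 Δamn-1 library stood above the other 2.

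gla-2 (NCU02583), a glucoamylase that frees glucose from starch, had 59.8, 66.7 and 55.5 FPKM in Δamn-1 on mannose, against 142, 166 and 143 FPKM in wild type. gh3-3 (NCU08755), of a family that includes beta-glucosidases, had 46.8, 37.8 and 25.9 FPKM in Δamn-1, against 143, 109 and 139 FPKM in wild type. gh2-1 (NCU00890), whose family includes beta-galactosidases and beta-mannosidases, had 3.89, 4.12 and 3.94 FPKM in Δamn-1, against 16.4, 16.7 and 11.9 FPKM in wild type. None of these 3 genes overlapped between the strains. gh31-3 (NCU04674) and the merged entry with gh31-1 (NCU09281,NCU09282), from a family of alpha-glucosidases, differed by -1.45 and -1.63 log2, and the merged entry with the trehalase gene tre-1 (NCU00943,NCU16421) by -1.47 log2.

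gh47-5 (NCU07067) is from a family of alpha-mannosidases, which trim mannose from glycans. It had 153, 129 and 121 FPKM in Δamn-1 on mannose, against 271, 274 and 257 FPKM in wild type, and 98.4, 134 and 130 FPKM in wild type without carbon. The strains did not overlap, but the difference of -0.99 log2 (SE 0.28) was just short of the limit of 1. It was called without Δamn-1 library 1 (-1.09 log2) or wild type library 3 (-1.02 log2). In media with sucrose gh47-5 was scarce, at 1.59 to 4.38 FPKM in Δamn-1 in the amino acid media.

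Genes of other roles behaved alike in direction. fbp-1 (NCU04797), which encodes the gluconeogenic enzyme fructose-1,6-bisphosphatase, had 178, 130 and 145 FPKM in Δamn-1 on mannose, against 295, 770 and 286 FPKM in wild type. Its difference was -1.42 log2 and -0.95 without wild type library 2, where the call is lost. pex11 (NCU04802), known for its part in peroxisome division, had 125, 115 and 105 FPKM in Δamn-1, against 214, 423 and 283 FPKM in wild type (-1.35 log2). bli-3 had 556, 448 and 434 FPKM in Δamn-1, against 2765, 1429 and 2566 FPKM in wild type (-2.18 log2, SE 0.30). The merged entry with arg-14 (NCU07682,NCU11370), for acetylglutamate synthase of arginine synthesis, differed by -1.38 log2, and by -0.95, without a call, when library 2 was left out. acd-3 (NCU01181), rib-3 (NCU01449) and csy (NCU04801) differed by -1.27, -1.51 and -2.14 log2. In all, 16 of the 17 members with a symbol were called lower, gh47-5 being the exception, against 187 of all 195 members and 8.99% of tested genes. The choice of the members favours a fall here too.

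**Figure D4:**
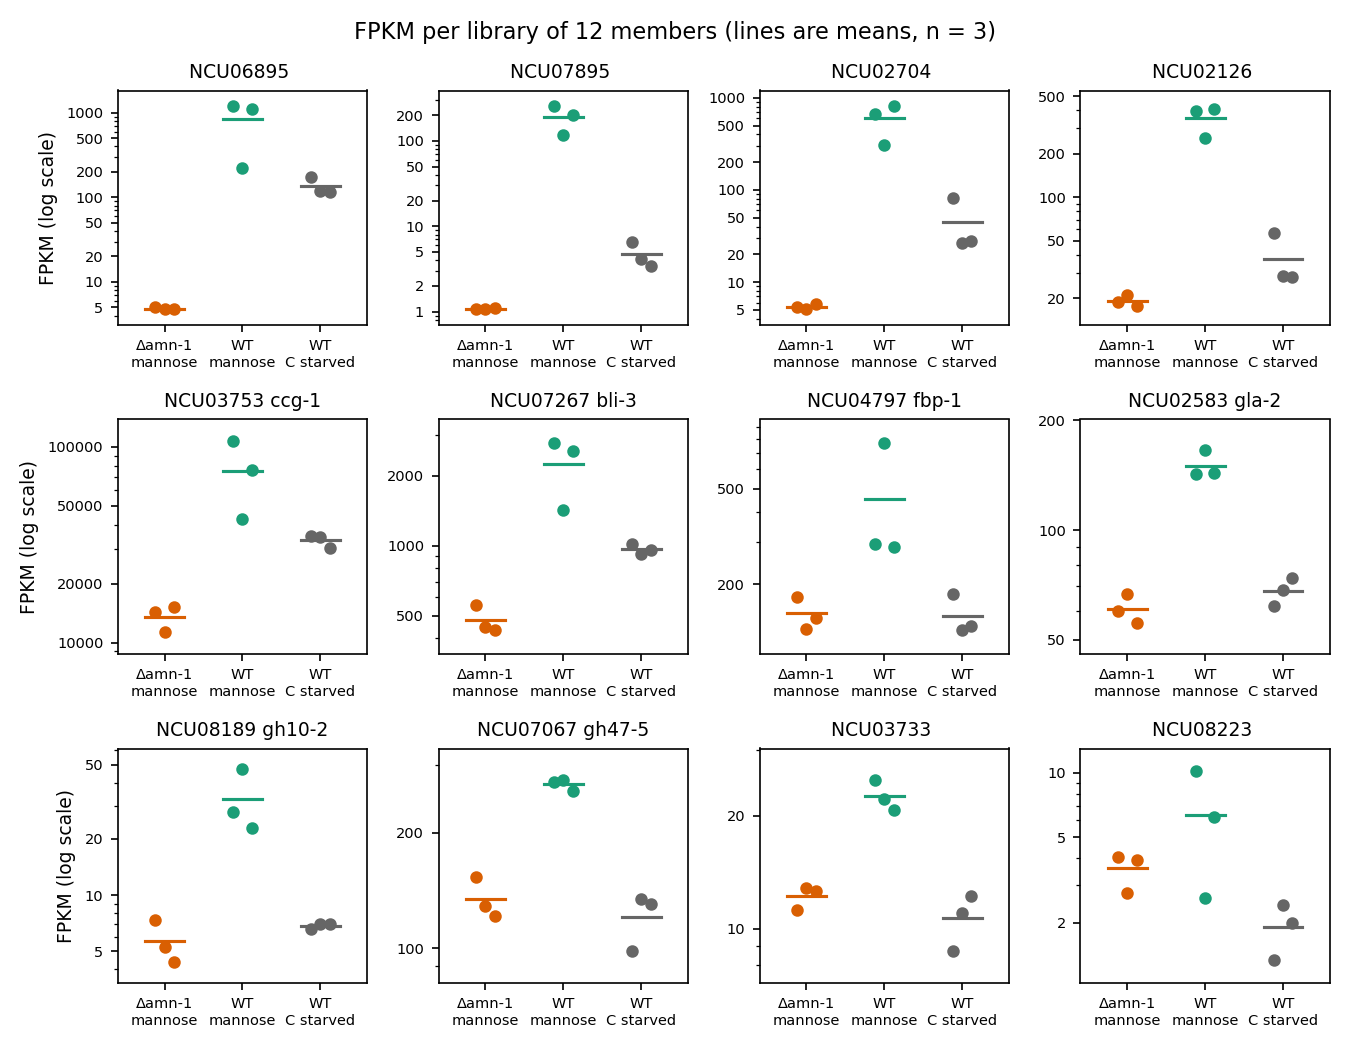
FPKM of 12 members in each of the 3 libraries of Δamn-1 on mannose (orange), wild type on mannose (green) and wild type without carbon (grey), on log axes, with lines at the means and libraries 1 to 3 from left to right. The top row holds genes that fell by over 4 log2, with Δamn-1 below carbon starvation, and NCU08223 at the lower right is the only one of the 12 in which the mannose groups overlap.

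Beside wild type without carbon, the members in Δamn-1 on mannose were mostly somewhat lower. Their mean was below that of wild type carbon starvation in 159 members and above it in 36, and the median ratio was 0.765. All Δamn-1 mannose libraries lay below all carbon starvation libraries for 115 members, against 24.5% of tested genes, all lay above for 6, against 22.2%, and 74 overlapped. These groups differ in strain and carbon source at once, which cannot be told apart. The rule that chose the members also used the starved wild type libraries. Setting these counts beside the shares of all tested genes is therefore a description without a test. The share of the summed FPKM taken by the members was 6.06% to 7.04% in Δamn-1 on mannose, and without ccg-1 it was 3.56% to 3.83%. ccg-1, bli-3 and the genes with the deepest falls were below their starved wild type level in every Δamn-1 library, while NCU08469 was above it, with 71.0, 83.5 and 82.4 FPKM in Δamn-1 on mannose against 49.4, 63.6 and 70.1 FPKM in starved wild type.

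Within the libraries labelled Δamn-1, none of which was used to choose the members, most members were higher on mannose than in the amino acid media with sucrose. Set against the mean of isoleucine, proline and tryptophan, 125 of the 195 members were called higher on mannose and 1 lower (limma), against 16.0% and 16.3% of tested genes, with a median of 1.40 log2 for the members and 0.05 for all tested genes. All mannose libraries lay above all 9 amino acid libraries for 136 members, against 30.3% of tested genes, and below them for 1, against 26.4%. Against each medium alone the counts were 120 higher and 1 lower for isoleucine (16.6% and 16.1% of tested genes), 124 and 1 for proline (16.6% and 17.1%), and 127 and 4 for tryptophan (17.9% and 17.6%). The carbon source, the nitrogen source, the wash and the remaining level of NCU00445 differ together here and cannot be told apart, and the mitochondrial share of FPKM differed too, at 0.0218% to 0.0258% in Δamn-1 on mannose against 0.0669% to 0.0931% in the Δamn-1 amino acid libraries. The 9 conidial and aerial markers summed to 23513 to 32072 FPKM in Δamn-1 on mannose, against 1557 to 3022 FPKM in Δamn-1 on isoleucine, 7562 to 7947 on proline and 10077 to 16468 on tryptophan, and their part in the difference was not tested.

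Of the 152 members next highest in carbon starvation 114 were called higher on mannose within Δamn-1, with a median of 1.75 log2, where 16.0% of tested genes were called higher and 16.3% lower. Of the 43 members next highest in another medium 11 were called higher and 1 lower, with a median of 0.40 log2, a share of higher calls nearer to that of all tested genes. The difference between these groups of members was not tested. The largest differences were those of NCU01231 (6.62 log2, SE 0.18), NCU08469 (5.75 log2) and NCU02238 (5.38 log2). NCU01231 had 179, 167 and 185 FPKM in Δamn-1 on mannose, against 0.579 to 1.28 FPKM in the 9 Δamn-1 amino acid libraries. It was high in wild type on mannose too, at 285, 740 and 362 FPKM, and there the fall in Δamn-1 was -1.25 log2, or -0.86 and no longer called without library 2. gh47-5 (5.26 log2), ccg-1 (4.22), gh3-3 (4.06), gla-2 (3.58) and fbp-1 (3.50) were also far higher on mannose than in the amino acid media in Δamn-1. Of the 17 members with a symbol 12 were called higher, against 16.0% of tested genes, and rib-3, acd-3, csy and the merged entries with arg-14 and tre-1 were not. acd-3 was at the limit and was called without any 1 of several Δamn-1 libraries, for example at 1.07 log2 without tryptophan library 3.

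At the other end, NCU04522 was the member that was lower on mannose, by 2.62 log2 (SE 0.32, limma adjusted p = 6.7e-11). It had 2.64, 3.26 and 2.81 FPKM in Δamn-1 on mannose, against 94.2, 106 and 88.6 FPKM in Δamn-1 on proline. Its place among the members rests on 1 library, since wild type on mannose had 12.7, 138 and 14.5 FPKM. NCU07120 and NCU02322 came next, with -0.49 and -0.46 log2, both short of a call.

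In the amino acid media few members differed between the libraries labelled Δamn-1 and wild type, though a larger share than of all tested genes. There NCU00445 itself differed by only -2.20 (isoleucine), -0.90 (proline) and -0.76 log2 (tryptophan). In the mean of the 3 amino acid media 10 members (5.13%) were lower in the libraries labelled Δamn-1 (limma), against 0.362% of tested genes. Only 1 member (0.513%) was higher, against 0.210% of tested genes. The median of the members was -0.01 log2. The difference between the strain difference on mannose and that in these media was itself called in 181 members, all with the more negative value on mannose, against 9.57% of tested genes, and 0 members had the opposite call, against 7.89%. The rule again favours this direction through the wild type mannose libraries.

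The 10 members lower in both settings were NCU02704, NCU05499, NCU02126, NCU02127, NCU06895, NCU03913, NCU00591, NCU05537, NCU09864 and NCU08771, several of them named after their values were seen. NCU02704 had 0.11 to 0.682 FPKM in Δamn-1 on isoleucine, against 58.0, 130 and 63.7 FPKM in wild type on isoleucine, and over the 3 media it differed by -4.66 log2 (SE 0.20). NCU05499 had 1.68, 2.69 and 2.49 FPKM in Δamn-1 on tryptophan, against 128, 114 and 83.3 FPKM in wild type, with a difference of -3.45 log2 over the 3 media. NCU02126 had 2.88, 2.14 and 2.88 FPKM in Δamn-1 on isoleucine, against 33.9, 82.3 and 31.3 FPKM in wild type, with a difference of -3.12 log2 over the 3 media. In these genes the strains did not overlap in those media. For 6 of the 10 the second highest wild type medium was not carbon starvation, and 9 of the 10 were among the 20 deepest falls on mannose. The difference between the strain differences on mannose and in the amino acid media was not called for NCU02126, NCU02127, NCU00591, NCU05499 and NCU09864. Without wild type mannose library 2 it was called for NCU02126 (-1.19 log2), NCU02127 (-1.31) and NCU09864 (-1.09, against -0.65 with it), without wild type isoleucine library 2 for NCU02126 (-1.12) and NCU02127 (-1.05), and for NCU02126, at -0.98 with all libraries, also without any 1 of several others. For NCU02704 (-1.77 log2) it was lost with a pseudocount of 0.1 (-0.82). NCU08771, at -1.14 log2 in the amino acid media, was at -0.98 and not called without wild type isoleucine library 2.

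**Figure D5:**
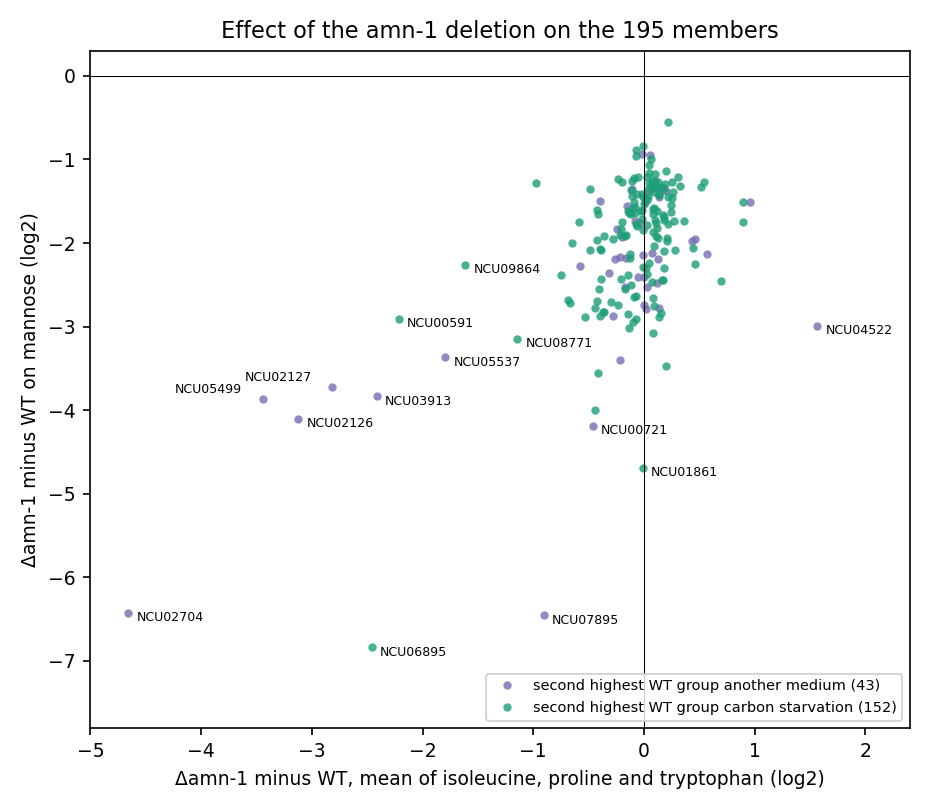
Fitted difference between Δamn-1 and wild type for each of the 195 members, on the mean of isoleucine, proline and tryptophan (x axis) and on mannose (y axis), both log2, coloured by the wild type medium with the second highest level. Most members lie near 0 on the x axis and between -1 and -3 on the y axis, 10 genes lie below -1 on both, and NCU04522 is the single member above 1 on the x axis.

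Proline gave calls in both directions among the members. In proline NCU00445 differed by -0.90 log2. Of the members 9 (4.6%) were higher in the libraries labelled Δamn-1 than in wild type (limma), against 3.14% of tested genes. Those lower were 19 (9.7%), against 2.31% of tested genes. Isoleucine gave 1 higher and 11 lower (0.292% of tested genes each), and tryptophan 0 and 11 (0.199% and 0.444%). The share of the 9 higher in proline was thus near that of all tested genes. All 9 were lower in Δamn-1 on mannose, and for all 9 the difference between the strain differences was called (12.6% of tested genes were called in that direction and 9.38% in the other). With opposite calls in the 2 media, a difference past the limit of 1 log2 was fixed in advance, so that count is no further result. NCU04522 differed by 3.49 log2 in proline, with the 94.2, 106 and 88.6 FPKM given above in Δamn-1 against 7.12, 8.36 and 7.46 FPKM in wild type. NCU03415, one of the most abundant members on mannose, had 27.5, 39.7 and 25.0 FPKM in Δamn-1 on proline, against 4.70, 6.25 and 5.29 FPKM in wild type (2.29 log2), and 615, 620 and 618 FPKM in Δamn-1 on mannose, against 994, 6105 and 1463 FPKM in wild type (-1.74 log2, or -0.96 and not called without library 2). NCU06005 had 31.4, 41.9 and 40.7 FPKM in Δamn-1 on proline, against 7.55, 7.59 and 6.78 FPKM in wild type (2.22 log2). The strains did not overlap in these 3 genes in proline. The others were rib-3 (1.58 log2), NCU09691 (1.49), NCU08541 (1.47), NCU08750 (1.43), NCU00282 (1.05) and NCU06326 (1.02, or 0.97 and not called without wild type proline library 3). NCU09691 overlaps its neighbour NCU09690, also a member.

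In the other 12 mutant groups, all with sucrose, the members were low. Their median level was 25.8 FPKM in Δamn-1 on mannose and next highest in the libraries labelled Δnit-4 without nitrogen, at 16.0 FPKM, with the rest between 5.17 and 9.22 FPKM. Δamn-1 on mannose was the highest of the 13 mutant groups for 103 members, and another mutant group had a higher mean for 92. The share over all tested genes was not taken for that count. The 3 libraries of Δamn-1 on mannose lay above all 36 other mutant libraries for 80 members, against 13.1% of tested genes. NCU04522 in Δamn-1 on proline was the single case of a mutant group with a mean above that of wild type on mannose.

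Members lay next to each other more often than an arbitrary gene lay next to a member. Of the 195 members 27 (13.8%) adjoined another member in gene order, against 4.02% of all 9757 genes placed, a description without a test. They were spread over the 7 linkage groups, with 44 on I, 17 on II, 21 on III, 39 on IV, 32 on V, 27 on VI and 15 on VII. Neighbours differed from each other by varying amounts. NCU02126 and NCU02127 (supercontig 12.1, from positions 1159012 and 1156535) differed by -4.10 and -3.73 log2 between Δamn-1 and wild type on mannose. NCU02704 and NCU02705 (supercontig 12.1, from 3260306 and 3262809) differed by -6.43 and -3.40 log2. NCU06895 and NCU06894 differed by -6.84 and -1.45 log2, and NCU05499 and NCU05498 by -3.86 and -1.93 log2. The one run of 3 members, NCU09957, NCU09958 and NCU09959 (supercontig 12.5, from 6042572, 6047047 and 6049654), differed by -1.28, -2.84 and -1.21 log2. csy and pex11 also adjoined. The members' median gene length was 1774 bases, against 2127 for all genes.

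Genes of related pathways that are not members were called in both directions. The choice of the members favours a fall in them, so a contrast with these other genes is no result. Among 64 other glycoside hydrolases tested 2 were higher and 5 lower in Δamn-1 than in wild type on mannose, with a median of -0.15 log2. Of all tested genes 7.91% were called higher and 8.99% lower there. In wild type 4 of the 64 were higher and 0 lower on mannose than without carbon (5.70% and 5.46% of all tested genes were called higher and lower there). Left out of the 64 were 7 members and 2 genes set aside, all chosen for high levels in wild type on mannose. These counts therefore do not describe the family as a whole. gh1-1 had 12.9, 11.3 and 11.9 FPKM in Δamn-1 on mannose, against 42.7, 66.9 and 48.0 FPKM in wild type. gh76-5, of a family of mannan-cutting enzymes, had 5.38, 4.19 and 4.55 FPKM in Δamn-1, against 16.1, 18.2 and 16.2 FPKM in wild type. gh18-5 of the chitinase family fell by 1.75 log2 in Δamn-1. Invertase, inv, which splits sucrose, fell by 3.65 log2 in Δamn-1 on mannose. Of the sugar transporter genes cdt-1, cdt-2 and hgt-1 0 were called in either direction between the strains. All 3 were higher in Δamn-1 on mannose than in the amino acid media, against 16.0% of tested genes.

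Of 4 other genes for the glyoxylate cycle and gluconeogenesis 2 were lower in Δamn-1 on mannose and 0 higher (8.99% and 7.91% of tested genes): acu-5 by 1.72 log2 and acu-9 by 1.95 log2. Among 9 regulators of carbon use clr-2 and vib-1 were lower in Δamn-1 on mannose, by 1.55 and 1.11 log2, and cre-1, the mediator of carbon catabolite repression, was higher, with 28.3, 26.9 and 27.1 FPKM in Δamn-1 against 11.7, 15.6 and 11.7 FPKM in wild type (1.04 log2, or 0.97 without wild type library 1 or 3). Of 19 other peroxin genes 0 were called between the strains on mannose or, in wild type, between mannose and no carbon. Among 6 genes of nitrogen use aga-1 (arginase) and xdh-1 (xanthine dehydrogenase) were lower in Δamn-1 by 2.07 and 1.30 log2, and am, the glutamate dehydrogenase gene, was higher by 2.46 log2. Between the strains on mannose 0 of 6 nitrogen regulators were called, although nmr, at -0.86 log2, was called without wild type library 3 (-1.01). Of these 6, nmr was higher in wild type on mannose than without carbon (1.14 log2, or 0.95 and not called without library 2), and nit-2 was lower in Δamn-1 on mannose than in the amino acid media (-1.84 log2). Ribosomal protein genes ran opposite to the members: 6 of 8 were higher in Δamn-1 on mannose, against 7.91% of tested genes. Among them crp-10 was higher by 1.83 log2, crp-15 by 1.67 and crp-3 by 1.39. In the conidiation list 3 of 20 were higher and 7 lower (7.91% and 8.99% of tested genes). There ccg-4 was higher by 2.94 log2 and ccg-13 and ccg-14 lower by 5.10 and 4.68 log2. Wild type library 2 was far below the others for ccg-13 (938, 24.0 and 1926 FPKM). The lists were drawn up with results of these data known.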

How the data were processed

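The values are FPKM per gene, deposited by the authors for each sample and as 1 joint table of all 86 libraries. The tools were Cuffnorm 2.2.1, Cufflinks 2.2.1 and HISAT2 2.1.0, per the submitters' processing notes. Options, strand and genome build were not given in the sources used here. Per the file headers the per-sample files also give confidence bounds, from which fragments were estimated (6890000 to 19100000 per library), and deeper libraries have less counting error. For 99.9% of genes the file's locus was that of the RefSeq gene table (assembly NC12). That table gave 1118 genes a symbol and was used for names and order. The identifier of amn-1 comes from background knowledge. Sequences and gene products were not used here.

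FPKM are not counts, so differences were fitted with limma 3.58.1 (R 4.3.3) on log2(FPKM + 1), a scale that understates differences of low genes, with 1 mean per group over all 86 libraries (59 residual degrees of freedom), a prior that follows the mean level, and p adjusted by Benjamini-Hochberg over all 8558 genes with at least 1 FPKM in 3 or more libraries. All 195 members passed that filter, 194 without the wild type mannose libraries. A gene is called where its difference reaches 1 log2 with an adjusted p under 0.05. The fit was checked on simulated data. Figures were drawn with matplotlib 3.10.9, and tables made with numpy 2.4.6 and pandas 2.3.3 under Python 3.11.15.

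The numbers in the joint table's column names are not those of the labels, so its columns were used by group, and a library is named by its number there. Of 100 pairs of replicates 0 held identical values. The joint table merges some neighbouring genes, 6 entries among the members, which are uncertain. The members and gene lists were chosen with earlier results of these data known. The genes named are the 10 most abundant members, the 10 with the widest gap, those with a symbol, the extremes of each comparison, those at the limits, amn-1 and up to 3 called genes per list, with exceptions marked where they occur and the neighbours of members. Alternatives were another pseudocount, filters, scalings, per-sample values, smaller fits, a replicate block and each library left out.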

Additional observations from a re-analysis of the deposited data

Results flagged for a closer look

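The difference between the libraries labelled Δamn-1 and wild type on mannose, minus the same difference in the 3 amino acid media, was called for 181 members (limma, adjusted p under 0.05), all with the more negative value on mannose. Of all tested genes 9.57% were called in that direction and 7.89% in the other. The wild type mannose libraries also chose the members, which favours this direction. NCU00445, taken as amn-1, itself differed by only -0.90 log2 in proline and -0.76 in tryptophan, so the values in those media may not measure its loss. Among the genes with the deepest falls it was -5.55 log2 for NCU07895, -4.68 for NCU01861, -4.38 for NCU06895, -3.72 for NCU00721 and -1.77 for NCU02704. For the 3 members closest to no difference on mannose it was -0.77 for NCU08223, -0.82 for NCU03733 and -0.81 for NCU03603, each with an adjusted p under 0.05 but under 1 log2 in size. Without wild type mannose library 2 it was -1.20 for NCU08223, and without library 1 or 3 it was -1.05 or -1.03 for NCU03603, all of them called.

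In proline 9 members were called higher in the libraries labelled Δamn-1 than in wild type, and on mannose the same 9 were called lower. Opposite calls fix a difference past 1 log2 in advance, so only the sizes are given here. Of all tested genes 12.6% were called with the more negative strain difference on mannose than in proline, and 9.38% the other way. The difference between the strain differences was -6.48 log2 for NCU04522, -4.36 for NCU06005, -4.03 for NCU03415, -3.37 for NCU08750, -3.13 for NCU06326, -3.08 for rib-3 (NCU01449), -3.02 for NCU00282, -3.01 for NCU08541 and -3.0 for NCU09691. This comparison was added after the values were seen.

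In wild type groups of 5 or 6 libraries, 6 named members had 1 library far above the rest, out of 118 groups looked at, where chance gives about 1 in 20. The count is therefore about what chance gives. In full medium these were ccg-1 (NCU03753) at 2876 FPKM against a next value of 1198, bli-3 (NCU07267) at 310.8 against 208.6, and NCU06524 at 10.1 against 6.82. Without nitrogen they were NCU03733 at 9.02 FPKM against 6.67, gh31-3 (NCU04674) at 5.73 against 3.25, and NCU04870 at 0.0527 with the others listed at 0.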

How the results depend on the processing

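The number of members depends on the gap required: 492 genes at 0.5 log2 and 27 at 2, against 195 at 1. Leaving out single wild type libraries of the mannose and carbon starvation groups gave 188 to 213. The count called lower in Δamn-1 on mannose was 27 of 27 at a gap of 2, 174 to 191 under all other alternatives for the 195, and 177 to 191 with 1 library left out. The count called higher in Δamn-1 on mannose than in the amino acid media was 115 to 132, and 122 to 128 with 1 library left out. There 1 was called lower, and 4 against tryptophan alone. The strain difference on mannose minus that in the amino acid media was called in 169 to 184 members. With the replicate number as a block (per-sample values), the counts were 181 lower between the strains on mannose, 115 higher within Δamn-1 and 174 for this last difference, against 179, 115 and 174 in the same fit without the block. Same-numbered Δamn-1 and wild type mannose libraries had correlated deviations of -0.04 to 0.06, so the numbers do not pair these samples. Between the strains in the amino acid media the values reached 0.403 on isoleucine and 0.347 on tryptophan for same-numbered libraries. For libraries of other numbers they reached 0.446 and 0.390. The main fit takes no account of such shared deviations. Library 2 of wild type on mannose ended the call of NCU01231 (-0.86), NCU03415 (-0.96), fbp-1 (-0.95) and the arg-14 entry (-0.95) between the strains when left out; the cause was not tested. No direction reversed in the alternatives run. Depth limits the members of a few FPKM most.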
